A study of Mus musculus with 6 samples.

Results

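The Reg family comprises small secreted C-type lectins, and its 6 members described here are Reg1, Reg2, Reg3a, Reg3b, Reg3g and Reg4. They were taken as every probe whose symbol in the platform annotation equals a member, which gave 7 probes of 38467 and 6 genes of 15123 named genes. Reg3b had 2 probes and each other member 1. Reg3d, a further mouse gene of the family, also had 1 probe and is described beside them as kin.

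The tissue was the antrum, the lower end of the stomach, taken from 14-day-old mice. The mutant animals were KitK641E:Neo/K641E:Neo, homozygous for a germline allele that encodes the activated receptor tyrosine kinase Kit K641E, and the controls were their KitWT/WT littermates. Every cell of a mutant animal carries the allele, and the sample was whole antral tissue, so the cells that gave rise to a signal are not known. Antral RNA of each of 3 littermate pairs was amplified, labelled with Cy5 and Cy3 and hybridised to 2 arrays of 70mer probes with the dyes exchanged, so the pair is the replicate and the series holds 6 arrays. Each value below is a log2 ratio within 1 array or the mean of both arrays of a pair, likely mutant over wild type. The direction assumes that the deposited values are red over green. It is called likely because Spry4 and Tpbg, which the paper's title names as raised, then lie above 0 in all 3 pairs. Base 2 was also assumed, and every fold rests on it.

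Members of the family differ in where they are made. Reg1 and Reg2 are products of the acinar cells of the pancreas and have been studied for their part in islet regeneration, and the stomach also makes Reg1. Reg3b and Reg3g are lectins of the intestinal epithelium that bind bacteria, and they are induced by microbes and by interleukin-22 acting through Stat3. Reg4 is made by enteroendocrine and other secretory cells of the gut. Ratios do not give levels, so a value near 0 may mean equal amounts in both animals of a pair or a transcript too low to be measured in either.

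The Reg genes had ratios of opposite sign, and most of them stood apart in single pairs. Reg1, Reg2, Reg3a and Reg3d were low in the mutant of pair 1 and lay close to 0 in pairs 2 and 3. Reg3g was high in the mutants of pairs 1 and 3 and close to 0 in pair 2. Reg3b had small ratios, above 0 in pair 1 and below 0 in the others, and Reg4 stayed close to 0 throughout. No member passed the test of mutant against wild type over the 3 pairs. Pair 1 also stood apart over all probes. Its arrays correlated with those of pair 2 at -0.05 in either dye orientation and with those of pair 3 at 0.11 and 0.14, while pairs 2 and 3 correlated at 0.39 and 0.49. Without pair 1 the means were -0.09 for Reg1, 0.03 for Reg2, 0.02 for Reg3a and 0.04 for Reg3d.

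**Figure D1:**
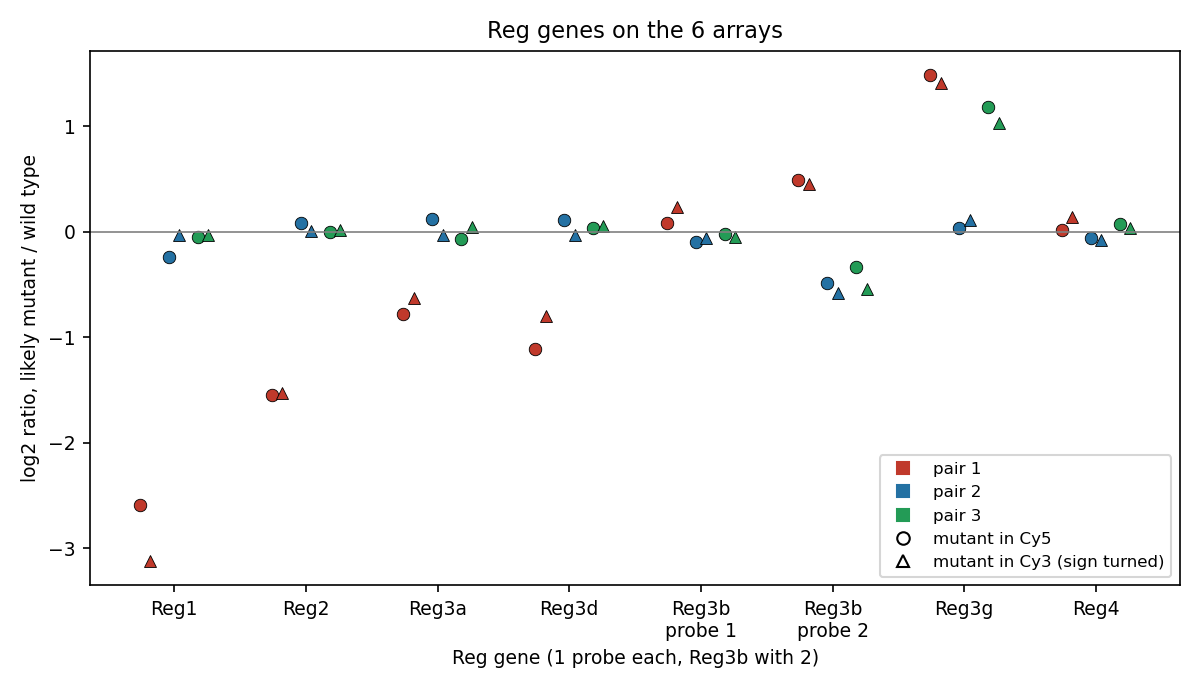
Log2 ratio (likely mutant over wild type, vertical axis) of each probe of the Reg genes on the 6 arrays. Colours mark the pair and symbols the dye of the mutant, and both arrays of a pair lie close together, with the red points of pair 1 far below 0 for Reg1, Reg2, Reg3a and Reg3d and far above 0 for Reg3g.

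The 6 Reg genes of chromosome 6, Reg3d included, lie next to each other in the RefSeq table of assembly GRCm38.p6, in the order Reg3b, Reg3d, Reg3a, Reg2, Reg1 and Reg3g. Reg4 is on chromosome 3. The genes with ratios below 0 in pair 1 were the 4 inner ones of this row, with -0.95, -0.71, -1.54 and -2.86, and the 2 outer ones, Reg3b and Reg3g, were at 0.32 and 1.45. The genes on either side of the cluster lay closer to 0. Lrrtm1, which encodes a leucine-rich transmembrane protein of neurons, had 0.10 in pair 1, Ctnna2, alpha catenin of neurons, -0.08, and Lrrtm4 0.06. The neighbour farthest from 0 was Gcfc2, at -0.17.

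**Figure D2:**
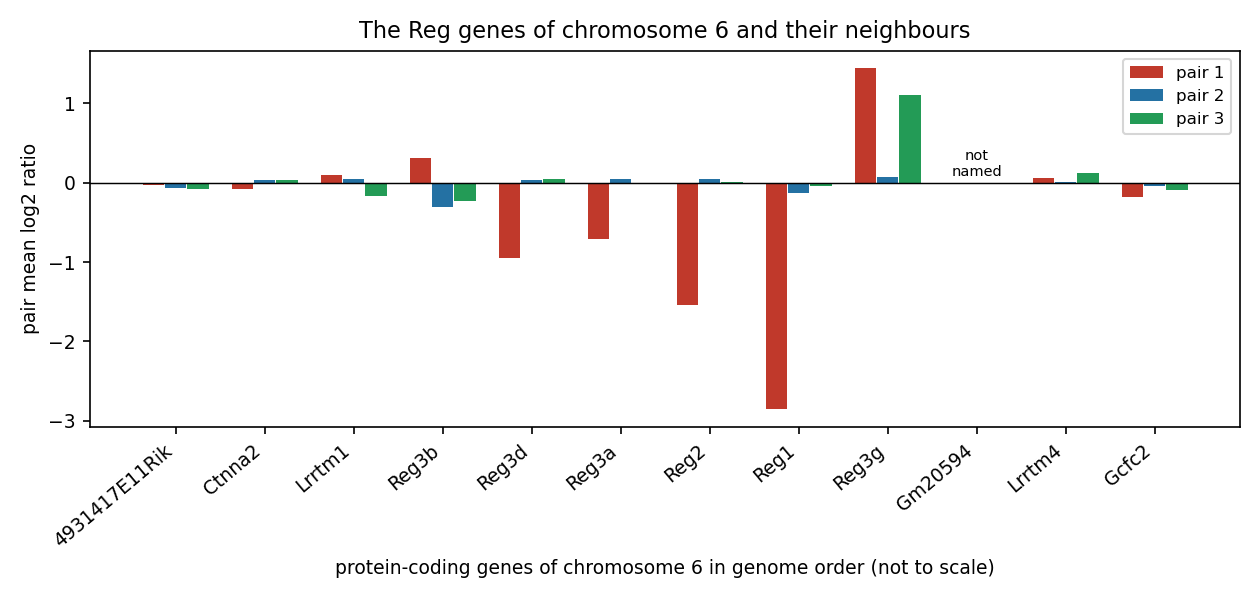
Pair mean log2 ratios (vertical axis, likely mutant over wild type) of the chromosome 6 Reg genes and of 3 protein-coding neighbours on each side, in genome order and not to scale. Bars start at 0 and colours mark the pairs. Pair 1 is below 0 for Reg3d, Reg3a, Reg2 and Reg1 and above 0 for Reg3b and Reg3g, while the bars of the measured neighbours run from -0.17 (Gcfc2, pair 1) to 0.12 (Lrrtm4, pair 3).

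The sequences before the start sites are shown for the 2 members with the lowest ratios in pair 1, Reg1 and Reg2, and for Reg3b and Reg3g, whose windows are the most alike. Each window runs from 250 bases before to 50 bases after the start, from RefSeq on GRCm38.p6, and is printed 5′ to 3′ on the strand of the gene. Reg1 is at chr6:78425733-78426032 and Reg2 at chr6:78404905-78405204, both on the plus strand. Reg3b is at chr6:78370635-78370934 on the plus strand and Reg3g at chr6:78468825-78469124 on the minus strand. Capitals mark matches on either strand to 4 motifs. The first is the E-box CACCTG. Another is the TC-box, spelled TTTCCCA. The palindrome TTCNNNGAA is known to be bound by STAT factors. The last is the TATA motif, TATAAA. E-boxes and TC-boxes are known as the paired site of the acinar factor Ptf1a and its partners. Only these exact spellings were searched, and sites with other letters were not counted. By exact spelling, only the window of Reg3d, not printed here, held both, and each printed window held no more than 1 of these 2 motifs. Near spellings occur, as in CACCTGtgatcattccca of Reg2 and catctgtgactgttccca of Reg1, and whether they are sites was not tested.
Reg1: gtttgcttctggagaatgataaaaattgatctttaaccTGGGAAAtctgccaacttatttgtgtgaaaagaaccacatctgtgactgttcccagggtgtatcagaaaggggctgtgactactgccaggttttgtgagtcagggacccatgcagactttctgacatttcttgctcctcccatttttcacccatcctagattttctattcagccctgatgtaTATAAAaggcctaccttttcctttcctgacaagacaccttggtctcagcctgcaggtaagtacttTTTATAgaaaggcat
Reg2: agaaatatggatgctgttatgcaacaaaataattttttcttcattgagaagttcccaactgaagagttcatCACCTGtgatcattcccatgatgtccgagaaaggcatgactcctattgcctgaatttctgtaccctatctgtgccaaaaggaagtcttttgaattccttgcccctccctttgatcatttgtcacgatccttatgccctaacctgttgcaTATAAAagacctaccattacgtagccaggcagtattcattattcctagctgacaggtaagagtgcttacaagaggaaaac
Reg3b: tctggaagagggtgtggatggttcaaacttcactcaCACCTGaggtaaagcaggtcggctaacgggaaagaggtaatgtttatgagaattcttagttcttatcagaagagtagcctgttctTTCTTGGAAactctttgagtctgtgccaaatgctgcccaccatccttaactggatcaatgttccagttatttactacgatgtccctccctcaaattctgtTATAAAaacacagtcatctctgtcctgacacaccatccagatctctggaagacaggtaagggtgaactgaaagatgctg
Reg3g: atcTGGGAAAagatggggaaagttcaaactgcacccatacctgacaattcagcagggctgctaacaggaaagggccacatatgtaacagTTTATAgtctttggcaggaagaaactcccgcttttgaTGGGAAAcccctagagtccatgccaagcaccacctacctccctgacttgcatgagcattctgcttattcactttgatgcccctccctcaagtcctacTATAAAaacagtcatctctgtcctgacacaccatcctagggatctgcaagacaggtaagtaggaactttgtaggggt

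In these letters, counting from the start, TATAAA on the strand of the gene begins at -30 in Reg1 and Reg2, at -29 in Reg3b and at -27 in Reg3g. It was found in 4 of the 7 Reg windows and in 13.6% of 32851 windows of all genes. The E-box CACCTG was found in 5 of 7 and in 20.2% of all windows. It was in those of Reg2, Reg3a and Reg3d, which were low in pair 1, and in those of Reg3b and Reg4, which were not, and it was not among the letters of the Reg1 and Reg3g windows. TTTCCCA was found in 3 of 7, Reg1, Reg3d and Reg3g, and in 8.06% of all. TTCNNNGAA was found in 2 of 7, Reg3b and Reg3d, and in 8.3% of all. In Reg3d it overlaps a TC-box. The windows of Reg3b and Reg3g had 210 identical bases after alignment (70.0% of 300), and those of Reg1 and Reg2 184 (61.3%). Reg3a and Reg3g also had 184, and the pairings with Reg4 of chromosome 3 ran from 52.7% to 55.0%. Some pairings within chromosome 6 lay in that range too, such as Reg1 with Reg3a (53%) and with Reg3b (54.3%). The motifs were chosen with the members' values known, and a match is a description of the letters.

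**Figure D3:**
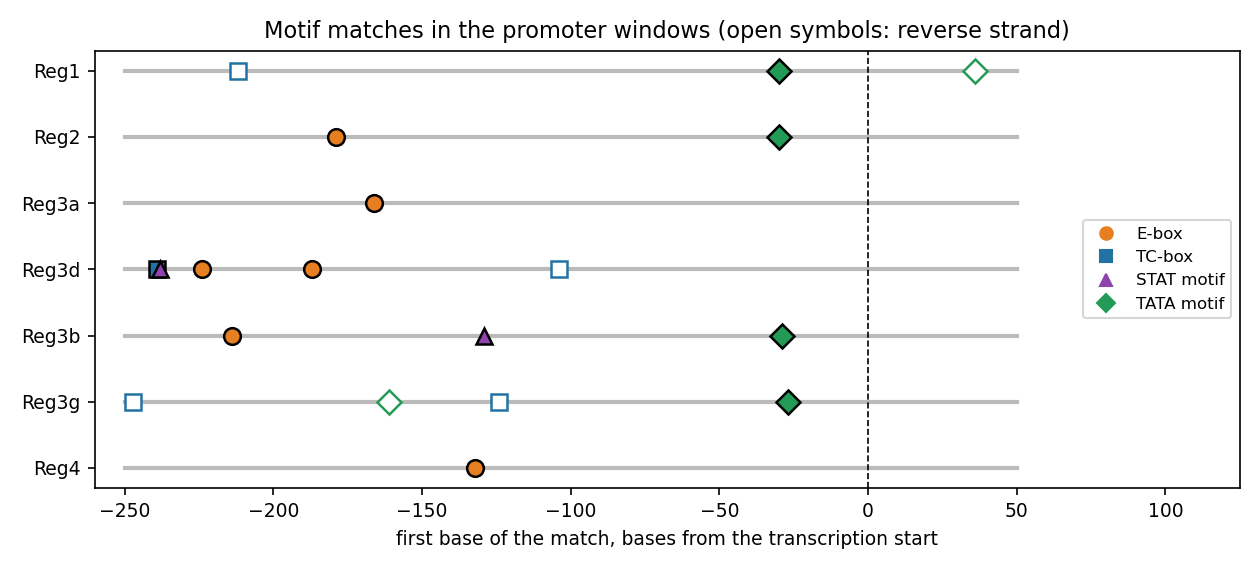
Positions of the motif matches in the 300-base windows of the 7 Reg genes (horizontal axis, bases from the transcription start, marked by the dashed line). Each symbol is the first base of a match, filled on the strand of the gene and open on the other. A TATA motif begins between -30 and -27 in Reg1, Reg2, Reg3b and Reg3g.

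Reg1 had the widest spread of the family. With the mutant in Cy5 and in Cy3, its ratio was -2.59 and -3.12 in pair 1, -0.24 and -0.03 in pair 2, and -0.05 and -0.03 in pair 3. All 6 arrays were below 0, but those of pair 1 stood far apart from the others, which lay within 0.24 of 0. The mean was -1.01 ± 1.60 (SD, n = 3 pairs), and the limma test over 30649 features did not call it (adjusted p = 0.923, 95% interval -2.91 to 0.89). In pair 1 alone the ratio of -2.86 corresponds to 7.25-fold less Reg1 signal in the mutant antrum than in that of its littermate.

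Reg2, the neighbour of Reg1 on the chromosome and also a product of acinar cells, was likewise low in pair 1, at a smaller size. Its ratio was -1.55 and -1.53 on the arrays of pair 1, 0.08 and 0.00 in pair 2, and -0.00 and 0.02 in pair 3. Both arrays of pair 1 were low, and the other 4 lay within 0.08 of 0. The mean over pairs was -0.50 ± 0.90 (SD, n = 3), with an adjusted p of 0.923 by limma and a 95% interval from -1.57 to 0.58. In pair 1 the mutant had 2.91-fold less signal.

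Reg3a and Reg3d were also low in pair 1, with lower sizes. Cross-hybridisation between the probes of related Reg genes was not tested, so the ratios of Reg1, Reg2, Reg3a and Reg3d may not be separate measurements. For Reg3a, a secreted lectin of the same chromosomal cluster, the arrays gave -0.78 and -0.63 in pair 1, 0.12 and -0.03 in pair 2, and -0.06 and 0.05 in pair 3. Reg3d, which encodes a protein related to islet neogenesis associated protein, gave -1.11 and -0.80, 0.11 and -0.03, and 0.03 and 0.05 in the same order. For both genes the 2 arrays of pair 1 were below all others, which did not go beyond 0.12 in size. The means over pairs were -0.22 ± 0.42 for Reg3a and -0.29 ± 0.57 for Reg3d (SD, n = 3), and neither was called (limma adjusted p = 0.923 for each).

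Reg3g was the member with the largest ratio above 0. Its arrays gave 1.49 and 1.41 in pair 1, 0.04 and 0.11 in pair 2, and 1.18 and 1.04 in pair 3. All 6 arrays were above 0, with pairs 1 and 3 high and both arrays of pair 2 near 0. The mean was 0.88 ± 0.72 (SD, n = 3 pairs), a 1.84-fold difference, with a 95% interval from 0.02 to 1.73. Its unadjusted p of 0.0471 in limma's test became 0.923 after adjustment over all features. Without pair 2 the mean was 1.28, and without pair 1 it was 0.59.

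Reg3b, a bacteria-binding lectin like Reg3g, had other ratios. Averaged over its 2 probes it gave 0.29 and 0.34 on the arrays of pair 1, -0.29 and -0.32 in pair 2, and -0.17 and -0.30 in pair 3. Pair 1 lay above 0 and the others below it, and the mean was -0.07 ± 0.34 (SD, n = 3; adjusted p = 0.960 by limma). The 2 probes had the same order of pairs but different sizes. Probe mMA034850 had pair means of 0.16, -0.08 and -0.03, and probe mMC012894 had 0.47, -0.53 and -0.44. Their means over pairs, 0.02 and -0.16, differ in sign.

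Reg4 varied least. Its arrays gave 0.02 and 0.14 in pair 1, -0.06 and -0.08 in pair 2, and 0.07 and 0.04 in pair 3. The arrays all lay within 0.14 of 0, and the mean was 0.02 ± 0.08 (SD, n = 3 pairs; 95% interval -0.12 to 0.16; adjusted p = 0.966 by limma).

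Over the family, limma called 0 of the 6 members at an adjusted p of 0.05, where 0.00653% of all 30649 features were called. At an unadjusted 0.05 it called 1 member, Reg3g, against 4.9% of all features. That unadjusted call was lost with quantile normalization, with a robust variance prior, without pair 1 and without pair 3. Its limma values there were 0.0711, 0.0503, 0.149 and 0.178, in the same order. The median of the members' means was -0.15, beside 0.00 over all features, and 2 members lay above 0 and 4 below. An exact sign-flip test over 3 pairs cannot give a p under 0.25, so none is given for single genes.

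The ratios of the Reg genes differed between pairs by more than the 2 arrays of a pair differed from each other. A limma F test over the 3 pairs, with a term for the dye and chosen after the values were seen, called 5 of the 6 members, against 16.7% of all features. The adjusted p was 0.000297 for Reg2, 0.000611 for Reg1, 0.000806 for Reg3g, 0.00791 for Reg3b and 0.0081 for Reg3a, and 0.443 for Reg4, which was not called. Since the arrays of each pair were made from the same RNA, this test compares the pairs with technical spread and does not bear on genotype. Between pairs 2 and 3 alone, without pair 1, only Reg3g was called among the 6 (adjusted p = 0.0134), against 8.78% of all features. The largest difference between the 2 arrays of a pair was 0.53, for Reg1 in pair 1, and the range over pairs of Reg1 was 2.82. The means of arrays with the mutant in Cy5 and in Cy3 had the same sign for 6 of 6 members, -0.96 and -1.06 for Reg1 and 0.90 and 0.85 for Reg3g.

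The genes whose ratios were most like those of Reg1 were digestive enzyme genes of the exocrine pancreas. Likeness was measured as the root mean square distance over the 6 arrays among 15117 named genes, for members whose own root mean square was at least 0.5. The nearest genes to Reg1 were Ctrl, which encodes a chymotrypsin-like protease (distance 0.14), Cela2a, an elastase (0.18), and Cpa1, carboxypeptidase A1 (0.21). Their pair 1 ratios were -2.97, -2.61 and -3.02. Reg1 had rank 3 from the lowest of the 15123 named genes in pair 1, behind Cpa1 and Ctrl. Of the 10 lowest genes of that pair, 8 are in the list of exocrine pancreas genes, and the others are Reg1 and Gbp2, an interferon-induced GTPase. In pairs 2 and 3 the ratios were near 0, with -0.07 and 0.12 for Ctrl, -0.22 and -0.08 for Cela2a and 0.00 and 0.11 for Cpa1. The genes share the arrays with Reg1, so the likeness in low values rests on pair 1 alone.

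The exocrine pancreas list as a whole stood low in pair 1. Of its 21 measured genes, 19 were below 0 there and 13 were at -1 or lower, with a median of -2.32 and a range from -3.02 to 0.50. The medians were -0.08 in pair 2 and -0.08 in pair 3. Reg1 lay below that median in pair 1, and Reg2 (-1.54), Reg3d (-0.95) and Reg3a (-0.71) above it. Not all pancreas genes were low, since the colipase gene Clps had 0.50 and the acinar transcription factor genes Ptf1a and Bhlha15 had -0.09 and -0.14. The part of pancreatic RNA in the values of these Reg genes was not tested, and in a piece of tissue fewer cells of a type and less RNA per cell cannot be told apart. Over the 3 pairs, limma called 0 of the 21 genes, with 2 lower and 0 higher at an unadjusted 0.05. Of all 30649 features it called 2, with 662 lower and 840 higher at an unadjusted 0.05. The 2 lower pancreas genes were Rnase1, a pancreatic ribonuclease, at -0.83 ± 0.23 (SE, n = 3), and Ptf1a at -0.17 ± 0.05.

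Reg2 had Cuzd1, a gene of acinar secretory granules, as its nearest gene (distance 0.06; pair means -1.48, 0.12 and -0.03). The next were Cxcl9, an interferon-induced chemokine, with a distance of 0.10, and Ubd, an interferon-induced ubiquitin-like protein, with 0.17. Both were low in pair 1, at -1.57 and -1.77.

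**Figure D4:**
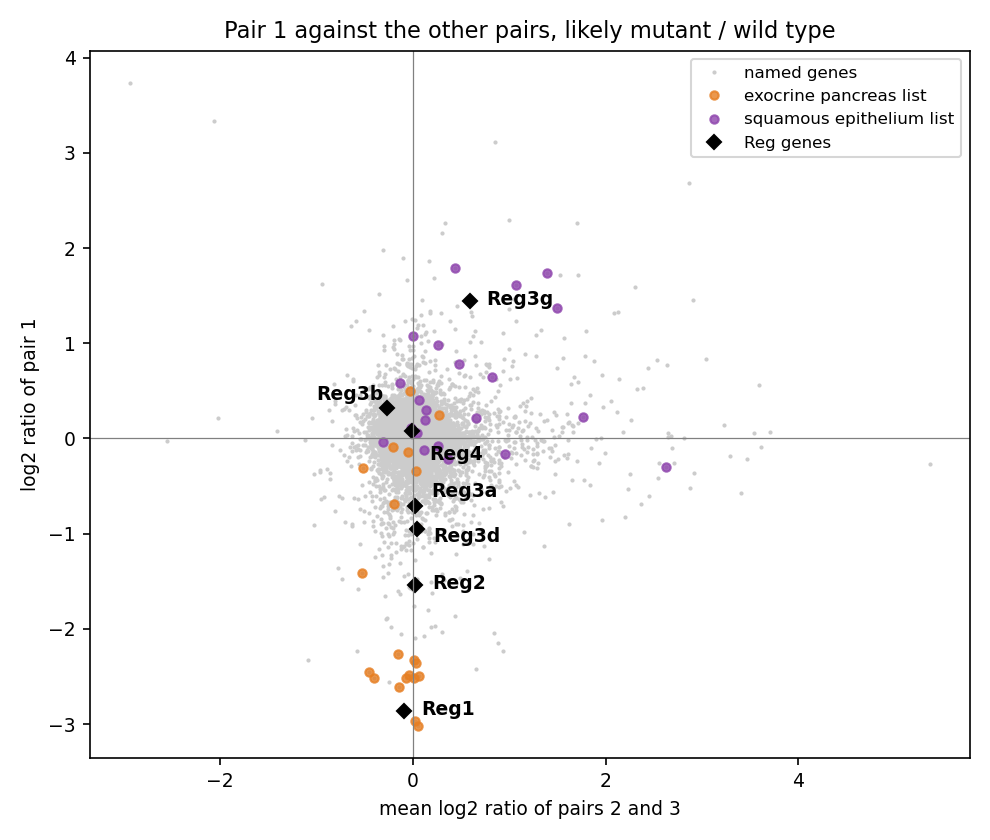
Log2 ratio of each named gene in pair 1 (vertical axis) against its mean in pairs 2 and 3 (horizontal axis), with the Reg genes as labelled diamonds. Reg1 lies among the lowest exocrine pancreas genes (orange), near -2.9. Reg2, Reg3d and Reg3a lie nearer to 0, within the range of that list. Reg3g lies above 1 in pair 1, as do 5 of the 22 squamous epithelium genes (purple), whose median there is 0.26.

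The nearest genes to Reg3g were of another kind. They were Krt6b and Krt6a, keratins of stratified epithelia (distances 0.12 and 0.16), and Serpinb11, a serine protease inhibitor family gene (0.24). Krt6b had pair means of 1.28, 0.05 and 1.17, Krt6a 1.39, 0.04 and 0.88, and Serpinb11 1.07, 0.05 and 1.19, beside 1.45, 0.07 and 1.11 for Reg3g. All 4 genes were high in pairs 1 and 3 and near 0 in pair 2. Reg3g had rank 25 from the highest of the named genes in pair 1 and rank 150 in pair 3.

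A list of squamous epithelium genes, added after this likeness was seen and without Krt6a, Krt6b and Serpinb11, also had its lowest median in pair 2. In the mouse such epithelium lines the forestomach and the oesophagus, not the antrum. Of its 22 measured genes, 16 were above 0 in pair 1, 5 in pair 2 and 21 in pair 3, with medians of 0.26, -0.17 and 1.04. Krt14, a keratin of basal squamous cells, had 1.61, -0.15 and 2.29, and Trp63, the transcription factor that specifies them, 0.98, -0.06 and 0.59. Krt5, the usual partner of Krt14, had 0.06, 0.04 and 0.05, and Dsc3, a desmosomal cadherin, -0.04, -0.40 and -0.22. In pair 1 the list ran from -0.30 to 1.79 and in pair 3 from -0.22 to 4.48. None of the 22 was called over the pairs by limma, and 0 passed at an unadjusted 0.05, where 4.9% of all features did. The part of squamous tissue in the values of Reg3g was not tested.

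**Figure D5:**
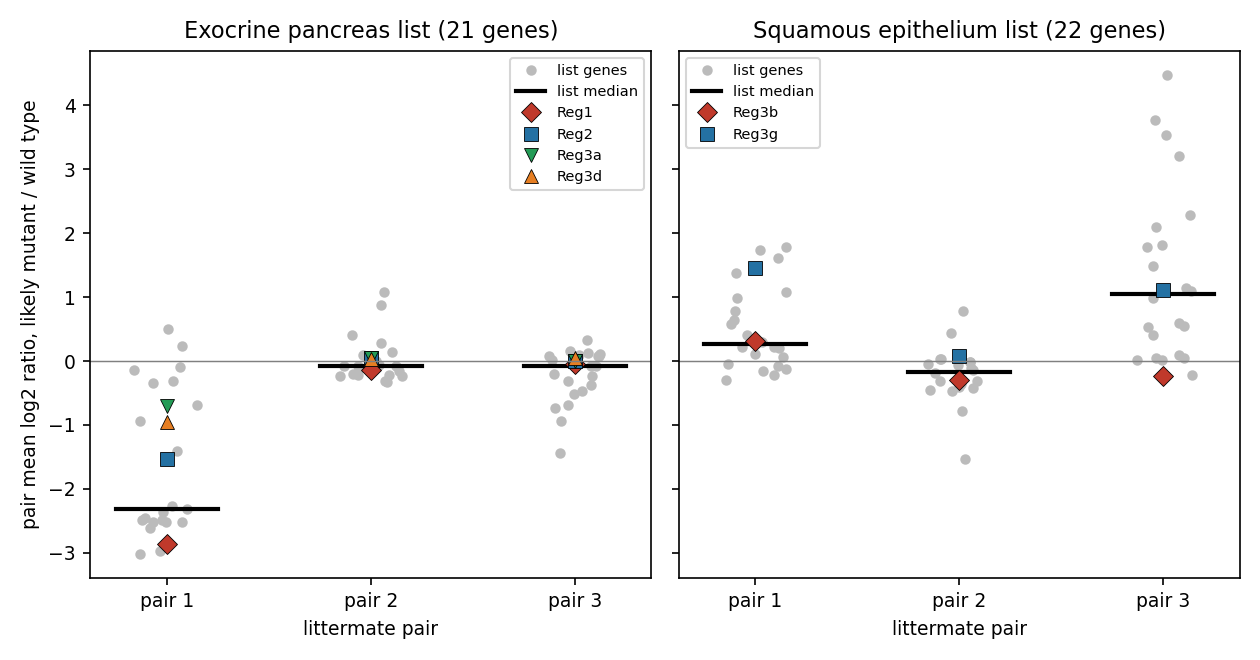
Pair mean log2 ratios (vertical axis, likely mutant over wild type) of the exocrine pancreas list (left) and of the squamous epithelium list added after seeing the data (right) in each pair, with Reg genes overlaid as coloured symbols. Grey points are list genes and black bars their medians. Reg1 follows the pancreas genes down to -2.86 in pair 1, and Reg3g lies at or above the squamous median in each pair while Reg3b does not in pairs 2 and 3.

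Genes of the intestinal epithelium, the usual source of Reg3b and Reg3g, were near 0 in their median in each pair. The 14 measured genes had medians of 0.11, -0.07 and -0.03 in pairs 1, 2 and 3. In the same order, 12, 6 and 4 of them were above 0. Krt20, a keratin, had 0.66, -0.55 and 0.605, and Fabp2, a further fatty acid binding protein, 0.92, 0.37 and -0.42. Cdx2, the transcription factor that defines intestine, had 0.10, -0.16 and -0.03, and Vil1, the brush border protein villin, 0.10, -0.43 and 0.25. Fabp1, the fatty acid binding protein of enterocytes and liver, had 1.72, 2.26 and 0.80. It was the only one with an unadjusted limma p under 0.05 (0.0079, adjusted 0.923), where 4.9% of all features passed. Clca1, a goblet cell product, had 1.62, -1.17 and -0.71.

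The receptor and the signals known to act on Reg genes showed 0 called genes among 25 measured, with 0 higher and 1 lower at an unadjusted 0.05. Over all 30649 features 840 were higher and 662 lower at that level. The median of the 25 genes was 0.01. Extl3, the receptor for Reg proteins, had -0.19, 0.16 and -0.02 in the 3 pairs. Il22 had 0.06, 0.01 and -0.05 and its receptor chain gene Il22ra1 0.02, -0.03 and 0.10. Stat3 had -0.38, 0.51 and 0.32. Its feedback inhibitor Socs3 had 0.60, -0.32 and 0.28, and the value of pair 1 averages arrays at 1.11 and 0.10. Gast, the hormone gastrin that induces Reg1, had 0.25, 0.03 and 0.23, and Gata6, an endodermal transcription factor, was lowest by p with -0.21 ± 0.05 (SE, n = 3; limma adjusted p = 0.923).

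Beside 2 calls among all 30649 features, other genes of mucosal defence gave 1 call among 21 measured genes, which was higher. That was S100a8, a subunit of calprotectin, with 1.71 ± 0.04 (SE, n = 3; limma adjusted p = 0.0414) and 1.71, 1.74 and 1.69 in the 3 pairs. This call was lost in 8 of 13 alternatives, among them arrays scaled to a common spread (adjusted p = 0.0501), each probe on its own (0.0642), quantile normalization (0.925) and leaving out any pair, while its mean stayed between 1.67 and 1.88. Its partner S100a9 had 1.33, 2.28 and 1.98 (mean 1.87 ± 0.21, SE, n = 3; limma adjusted p = 0.891). Pigr, the receptor that carries antibodies across epithelium, had 0.25, 0.44 and 0.54, and Lcn2, lipocalin 2, 0.29, 1.24 and 0.24. None of these 3 passed after adjustment. Retnlb, a goblet cell product, had -0.00, -0.10 and -0.05, and Ang4, a Paneth cell product, -0.03, 0.05 and 0.02. Other genes were low in a single pair, with Slpi at -3.62 in pair 2, Saa3 at -1.43 in pair 1 and Duoxa2 at -1.20 in pair 3. In pairs 1, 2 and 3, 2, 6 and 4 genes of the list were at 1 or higher. In each pair 1 gene was at -1 or lower. The median of the list was 0.04.

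Lists of other tissues and cells were compared by their medians in pairs 1, 2 and 3. The 11 gastric surface genes had medians of 0.30, -0.16 and -0.02, and 11 of 11 were above 0 in pair 1. The 14 gastric endocrine genes had -0.02, -0.02 and 0.01, the 8 smooth muscle genes -0.99, 0.29 and -0.65, and the 18 liver genes -0.00, 3.04 and 2.13. The 13 neutrophil genes had 0.10, 0.32 and 0.10. Kit had -0.02, 1.89 and 0.81 and Spry4 0.46, 2.17 and 1.51, both lowest in pair 1, and Tpbg had 0.82, 2.54 and 2.53. Ratios of Kit do not check the mutation, a change of 1 residue. The Y-linked Eif2s3y had -0.03, -0.05 and -5.06, so the animals of pair 3 differed in Y-linked signal, and Reg3g was at 1.11 there. The part of liver, muscle or Y-linked differences in the Reg values was not tested.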

How the data were processed

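Antral RNA of 3 littermate pairs was hybridised to 6 two-colour MEEBO arrays with dyes exchanged, per the labels' protocols. The authors deposited 1 table of 38467 probes, read here as log2 ratios. Base 2 and the order of the channels are inferred, while scanner, background correction and normalization: not given in the sources used here. Array medians lay between -0.003 and 0.004. Within pairs 1, 2 and 3 the arrays as deposited correlated at -0.61, -0.74 and -0.83 across probes, as ratios of fixed dyes would.

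Arrays with the mutant in Cy3 had their sign turned. Probes were named from the platform annotation (22941 had 1 symbol and 15526 did not), and the gene identifiers of those 22941 probes were found in RefSeq GRCm38.p6. Probes of a gene were averaged, giving 30649 features. The 2 arrays of a pair were averaged and the 3 pair means tested against 0 with limma 3.58.1 (R 4.3.3; two-sided, Benjamini-Hochberg over all features, threshold 0.05, no filter). The number of arrays limits the precision. Errors marked SE are limma's moderated errors, and the intervals use the same fit. The members, lists and motifs were chosen with earlier results of these data known. Named are all members, Reg3d, the 3 genes nearest to each member that varied enough, and up to 4 genes of each list by p. Others, such as Krt5, Clps, Bhlha15, Cdx2, Vil1, Krt20, Fabp2, Clca1, Extl3, Il22, Il22ra1, Stat3, Socs3, Retnlb, Ang4, Slpi, Saa3, Duoxa2, Gbp2 and the chromosomal neighbours, were named for their role or after their values were seen. The fits were also run on simulated arrays with known shifts and independent normal noise. For the test against 0 those shifts were equal in all 3 pairs, unlike the ratios of most Reg genes here. Alternatives covered probe averaging, centring, scaling, quantile normalization, a pair block with and without a dye term (the former added after seeing the data), 1 dye orientation, named genes only, a robust prior and leaving out each pair. The test between pairs was added after seeing the data.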

Additional observations from a re-analysis of the deposited data

How the results depend on the processing

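At an adjusted p of 0.05, limma called 0 of 6 Reg members in the fit reported and in each of 13 alternatives, which called between 0 and 61 of all features, the highest with the pair as a random replicate block over 6 arrays against 2 in the fit reported (Reg3g at 0.88 with an adjusted p of 0.251, the lowest of its alternatives, which reached 1.00). With a dye term added to that block, an alternative chosen after seeing the data, 15 features were called and the adjusted p of Reg3g was 0.413. At an unadjusted 0.05, Reg3g was lost under 4 alternatives, and without pair 1 the member that passed was Reg3b (adjusted p = 0.447 by limma). Means of the members kept their sign under the 10 alternatives that keep all 3 pairs, except that Reg3b was at 0.0168 by probe mMA034850 alone (-0.16 by the other probe), with Reg1 from -1.06 to -0.90, Reg2 from -0.50 to -0.37 and Reg3g from 0.85 to 1.19. Leaving out a pair moved them further. Without pair 1, Reg2 was at 0.025, Reg3a at 0.0188 and Reg4 at -0.00625, each with the other sign, and Reg1 was at -0.09. Reg3b turned to 0.0406 without pair 2 and to 0.0064 without pair 3. Over the pairs left out in turn, Reg1 ran from -1.50 to -0.09, Reg2 from -0.766 to 0.025, Reg3a from -0.357 to 0.0188, Reg3b from -0.269 to 0.0406, Reg3g from 0.59 to 1.28 and Reg4 from -0.00625 to 0.067. The count of members that differed between pairs was 5 without a dye term (13.1% of all features called), with each probe on its own (17.3%), with arrays scaled (17.1%), without pair 2 (12.4%) and without pair 3 (10.1%), and 1 without pair 1 (8.78%). The 3 pairs and the absence of intensities limit what can be said of weak genes.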
